A study of Mus musculus with 22 samples.

Results

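The regulators of G-protein signalling (RGS) described here are 8 genes, Rgs2, Rgs3, Rgs4, Rgs10, Rgs12, Rgs14, Rgs16 and Rgs19, taken by symbol from a table of 55415 lines. Their transcripts were measured by RNA-seq in 22 libraries of mpkCCD cells, an immortalised mouse kidney line of cortical collecting duct origin that was cultured on transwells. The series concerns cell-to-cell variability of aquaporin-2 (Aqp2), the water channel that vasopressin places in the apical membrane of collecting duct principal cells. Wild-type (WT) cells were not sorted and received vehicle (3 libraries) or dDAVP, a synthetic agonist of the vasopressin V2 receptor (3 libraries). The reporter lines C1, C11, C43 and C50 were given dDAVP throughout, and their cells were divided by the absence or presence of GFP (GFP-negative, GFP-positive); each clone and fraction has 2 libraries. All 10 groups shared a final medium with dexamethasone, selenite and transferrin. Each reporter line is 1 clone, so clone and sorting cannot be told apart when a clone is set beside WT cells. The promoter that drives GFP is not given in the sources used here, and the labels do not tie a dDAVP dose or duration to any library. Nothing in the labels says that replicates came from separate cultures, so the p-values measure only the spread between these libraries, which may be technical.

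RGS proteins bind the alpha subunit of active heterotrimeric G proteins and speed the hydrolysis of its GTP, which ends the signal of the receptor upstream. The V2 receptor of principal cells acts through the alpha subunit Gs (gene Gnas), adenylyl cyclase and cyclic AMP. Rgs2, Rgs3, Rgs4 and Rgs16 belong to the R4 family of small RGS proteins, and Rgs2 is known for its preference for Gq and for limiting the renal response to vasopressin in mice. Rgs10, Rgs12 and Rgs14 form the R12 family, in which Rgs12 and Rgs14 carry a GoLoco motif that holds inactive Gi alpha. Rgs19, also called GAIP, belongs to the RZ family, acts on Gi-type alpha subunits and binds the PDZ protein Gipc1.

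Only 4 of the 8 genes were expressed at a mean of 1 TPM (a transcript level scaled to the same total in every library and corrected for transcript length) or more over the 22 libraries. Rgs19 had the highest mean, 31.4 TPM, ahead of Rgs3 at 15.8 TPM, Rgs12 at 10.2 TPM and Rgs2 at 9.95 TPM. Rgs4, Rgs10, Rgs14 and Rgs16 did not reach 1 TPM in any library. Of 21 numbered Rgs genes in the table, 6 had a mean of at least 1 TPM, the other two being Rgs11 (61.2 TPM) and Rgs20 (1.59 TPM). The 8 genes held 51.4% of the summed TPM of the numbered Rgs genes and Rgs11 alone held 46.3%.

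The regions around the start sites of the 3 genes that differed between GFP fractions are shown because the V2 receptor signals through cyclic AMP, whose transcription factor CREB binds the letters TGACGTCA or the shorter TGACG. The windows run from 250 bases before to 50 bases after the RefSeq start site (build GRCm38.p6), are written 5′ to 3′ in the direction of transcription, and carry any TGACG, or CGTCA for the other strand, in capitals. The Rgs2 window is chr1:144004100-144004399 on the minus strand, the Rgs12 window is chr5:34949198-34949497 on the plus strand, and the Rgs19 window is chr2:181693928-181694227 on the minus strand. For Rgs12 and Rgs19 the first of several listed start sites is shown.
Rgs2: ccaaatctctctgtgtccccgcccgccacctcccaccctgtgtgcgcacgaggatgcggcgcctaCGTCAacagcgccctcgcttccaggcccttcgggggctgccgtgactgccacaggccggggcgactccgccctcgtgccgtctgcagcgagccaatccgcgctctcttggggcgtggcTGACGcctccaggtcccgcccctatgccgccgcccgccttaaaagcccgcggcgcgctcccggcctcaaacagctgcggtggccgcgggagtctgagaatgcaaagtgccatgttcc
Rgs12: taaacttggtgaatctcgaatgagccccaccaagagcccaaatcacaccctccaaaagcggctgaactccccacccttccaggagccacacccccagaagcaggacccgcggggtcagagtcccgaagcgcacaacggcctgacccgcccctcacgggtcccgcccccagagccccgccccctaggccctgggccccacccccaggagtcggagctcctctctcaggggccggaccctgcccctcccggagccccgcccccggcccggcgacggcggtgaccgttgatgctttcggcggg
Rgs19: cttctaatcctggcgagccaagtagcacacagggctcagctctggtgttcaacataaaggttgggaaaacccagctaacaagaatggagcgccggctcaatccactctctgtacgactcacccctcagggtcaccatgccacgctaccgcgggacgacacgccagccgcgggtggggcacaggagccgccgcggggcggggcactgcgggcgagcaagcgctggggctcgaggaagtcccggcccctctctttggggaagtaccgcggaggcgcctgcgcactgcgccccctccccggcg
The Rgs2 window holds TGACG on the minus strand at position -185 and on the plus strand at position -67 relative to the start. The Rgs12 and Rgs19 windows shown hold none, while a window at a second Rgs12 start site holds 1 at position -82. Over 11 windows for 7 of the 8 genes, 3 held TGACG on either strand and 0 held the full TGACGTCA. Among 32851 RefSeq windows of the same length, 20.8% held TGACG and 1.79% held TGACGTCA, which contains TGACG. These are matches of letters and do not show that a factor binds there.

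Labels and libraries were checked first. Aqp2 rose from 69.1 ± 5.43 TPM with vehicle to 2868 ± 139 TPM with dDAVP in WT cells (SD, n = 3 each), and the GFP transcript was at 1065 to 1567 TPM in the GFP-positive libraries against 5.31 to 17.57 TPM in the GFP-negative ones. Of 10 principal-cell markers, 8 had a mean of at least 1 TPM; this held for 1 of 7 intercalated-cell markers (Atp6v1b1), 1 of 7 leukocyte markers (Csf1r), 0 of 7 fibroblast or pericyte markers and 0 of 5 endothelial markers. The summed intercalated-cell markers were at 19.36 to 71.61 TPM in GFP-negative and 44.76 to 110.07 TPM in GFP-positive libraries, and at 40.8 to 63.83 TPM in WT cells; nearly all of this was Atp6v1b1, a proton pump subunit, while the anion exchangers Slc4a1 and Slc26a4 were at most 0.48 and 0.34 TPM. The summed leukocyte markers were at 11.64 to 22.42 TPM in GFP-negative and 9.00 to 14.84 TPM in GFP-positive libraries. Their part in the differences between fractions was not tested. The depth of these libraries cannot be read from TPM. The libraries formed a set of 10 with 17177 to 20250 genes above 0 and a set of 12 with 23135 to 31292. Both sets held 4 GFP-negative and 4 GFP-positive libraries, not spread evenly over the clones. Ribosomal-protein transcripts made up 8.35% of TPM in C50 GFP-negative replicate 1 and at most 6.135% in the others. The members' changes over all clone libraries and within C50 are therefore also given without that library.

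Rgs2 was the RGS transcript that rose with dDAVP in WT cells. Its level was 4.83, 4.65 and 6.18 TPM in the vehicle libraries and 9.35, 10.1 and 8.80 TPM in the dDAVP libraries. All dDAVP libraries lay above all vehicle libraries, and the means were 5.22 ± 0.836 and 9.42 ± 0.653 TPM (SD, n = 3 each), a ratio of 1.80. In such bulk RNA, fewer or more cells with the transcript and less or more of it per cell cannot be told apart. On the log2(TPM + 1) scale, which understates changes of low genes, the rise was 0.75 (SE 0.143, limma with Benjamini-Hochberg adjustment over 13494 genes, adjusted p = 0.0248). The median change of all genes tested was -0.16, and relative to it Rgs2 rose by 0.91. Of the 4 RGS genes tested, Rgs2 alone was called, against 8.88% of all genes tested (2.37% higher, 6.51% lower), and 6.69% of genes had a larger change in size. The call was lost when any of 4 of the 6 libraries was left out: vehicle replicate 1 (adjusted p = 0.0775), vehicle replicate 2 (0.0840), dDAVP replicate 1 (0.0754) or dDAVP replicate 3 (0.0795).

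Among the reporter clones, Rgs2 was also higher in GFP-positive than in GFP-negative cells. In C1 it was at 13.51 and 11.01 TPM in GFP-negative and 16.27 and 19.88 TPM in GFP-positive libraries. In C43 the levels were 8.09 and 8.97 TPM against 15.17 and 21.25 TPM. The difference was smaller in C11, with 6.65 and 7.21 TPM against 9.58 and 8.57 TPM. In C50 the fractions overlapped, with 7.93 and 5.05 TPM against 8.92 and 6.85 TPM. Fractions were thus separate and higher in 3 of 4 clones, a pattern (at least 3 clones, none the other way) shared by 12.6% of genes tested. Without C50 GFP-negative replicate 1 they were separate and higher in all 4 clones, as for 7.31% of genes tested. The means had ratios of 1.47 (C1), 1.31 (C11), 2.13 (C43) and 1.21 (C50). With clone as a covariate, the change was 0.53 (log2 scale, SE 0.128, adjusted p = 0.00475 by limma), and without C50 GFP-negative replicate 1 it was 0.61 (adjusted p = 0.000525). The call was lost with clone means as the replicates (adjusted p = 0.0577). Within single clones the change passed the test in C43 (0.99, adjusted p = 0.0131) but not in C1 (0.52, adjusted p = 0.232), C11 (0.34, adjusted p = 0.458) or C50 (0.26, adjusted p = 0.421). The C50 value had no stable size or sign: it was 0.54 (adjusted p = 0.120) without C50 GFP-negative replicate 1 and -0.02 (adjusted p = 0.971) without C50 GFP-negative replicate 2. It was 0.09 (adjusted p = 0.862) without C50 GFP-positive replicate 1 and 0.43 (adjusted p = 0.338) without C50 GFP-positive replicate 2. The C43 call was lost without C43 GFP-negative replicate 1 (adjusted p = 0.101), GFP-negative replicate 2 (0.0532) or GFP-positive replicate 2 (0.110). These within-clone values do not show that clones differ in the change: the adjusted p for the interaction between fraction and clone was 0.518, and 0.521 without C50 GFP-negative replicate 1.

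**Figure D1:**
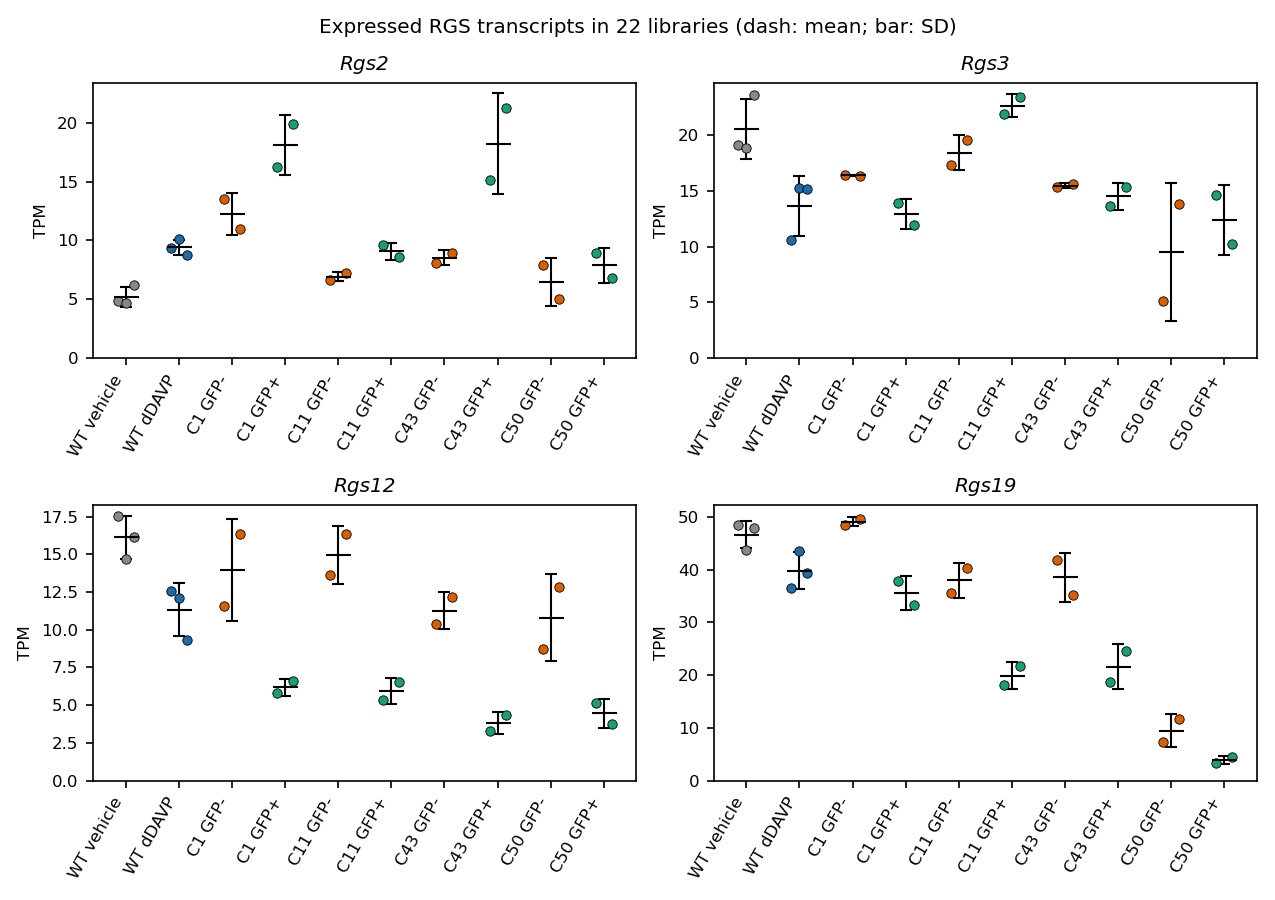
Level in TPM (vertical axes, starting at 0) of Rgs2, Rgs3, Rgs12 and Rgs19 in each of 22 libraries by group (grey WT vehicle, blue WT dDAVP, orange GFP-negative, green GFP-positive). Points are libraries, dashes group means and bars SD. Rgs12 lies between 3.31 and 6.58 TPM in the GFP-positive libraries and is lower in the GFP-positive group of each clone. Rgs19 is lowest in C50.

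Rgs3, the other expressed R4 member, can act on both Gi and Gq alpha subunits. In WT cells it was at 19.11, 18.87 and 23.6 TPM with vehicle and 10.56, 15.27 and 15.19 TPM with dDAVP. The dDAVP libraries all lay below the vehicle libraries, with means of 13.7 ± 2.70 and 20.5 ± 2.66 TPM (SD, n = 3 each). The difference of -0.56 on the log2 scale (SE 0.164) did not pass the test (limma, adjusted p = 0.0723). Relative to the median of all genes it was -0.41; it was -0.33 (adjusted p = 0.240) with quantile normalization and -0.30 (0.317) in the libraries with more genes detected. Across the clones Rgs3 had no common direction: C1 was at 16.39 and 16.37 TPM in GFP-negative and 13.87 and 11.98 TPM in GFP-positive libraries, without overlap. In C11 the order was the opposite, with 17.31 and 19.55 TPM against 21.89 and 23.38 TPM, also without overlap. Neither change passed the test within its clone (limma, -0.32, adjusted p = 0.678 in C1 and 0.28, adjusted p = 0.702 in C11). With 2 libraries against 2, a lack of overlap alone says little, and the share of all genes separate within a single clone is not given here. C43 overlapped at 15.3 and 15.63 TPM against 13.65 and 15.38 TPM. C50 overlapped as well, at 5.10 and 13.85 TPM against 14.64 and 10.19 TPM, and the lowest of these values belongs to the library with the high ribosomal share. The change over all clones was 0.09 (SE 0.164, limma, adjusted p = 0.730) and -0.06 (adjusted p = 0.618) without that library. The interaction of fraction and clone was not called for Rgs3 (adjusted p = 0.611), nor without that library (0.439), but without C50 GFP-negative replicate 2 its adjusted p was 0.00615. The change within C50 was -0.17 when C50 GFP-negative replicate 1 was left out and 1.12 when replicate 2 was left out, so single libraries set its sign.

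Rgs12 fell in the GFP-positive cells of every clone. Its product carries PDZ, phosphotyrosine-binding and Ras-binding domains besides the RGS domain and the GoLoco motif. C1 had 11.6 and 16.37 TPM in GFP-negative and 5.79 and 6.58 TPM in GFP-positive libraries. C11 had 13.62 and 16.32 TPM against 5.32 and 6.55 TPM. C43 had 10.4 and 12.14 TPM against 3.31 and 4.35 TPM. C50 had 8.75 and 12.84 TPM against 5.15 and 3.77 TPM. Every one of the 8 GFP-positive libraries (3.31 to 6.58 TPM) was below every one of the 8 GFP-negative libraries (8.75 to 16.37 TPM). The share of all genes separated in this way is not given here. Genes lower in GFP-positive cells without overlap within all 4 clones, a weaker condition, were 12.2% of those tested. The Rgs12 means were 5.10 ± 1.22 and 12.8 ± 2.67 TPM (SD, n = 8 each, 2 libraries from each of 4 clones and so not 8 independent units). The GFP-positive mean was a fraction of 0.442 (C1), 0.397 (C11), 0.340 (C43) and 0.413 (C50) of the GFP-negative mean, with 0.347 in C50 against GFP-negative replicate 2 alone. The log2 change was -1.17 (SE 0.113, limma, adjusted p = 2.68e-06), and 2.83% of genes had a larger one in size. It was called within each clone, at -1.04 in C1 (adjusted p = 0.0218), -1.20 in C11 (0.0111), -1.35 in C43 (0.00294) and -1.10 in C50 (0.00636). With 1 library left out, the lone library of its fraction is assumed to vary like the rest. The Rgs12 call within C1 was then lost without GFP-negative replicate 2 (adjusted p = 0.144), GFP-positive replicate 1 (0.165) or GFP-positive replicate 2 (0.0911), and also with all genes above 0 tested (0.0624). Within C11 it was lost without GFP-negative replicate 2 (0.108), GFP-positive replicate 1 (0.112) or GFP-positive replicate 2 (0.0513), and within C50 without GFP-positive replicate 2 (0.0642). Without C50 GFP-negative replicate 1 the change within C50 was -1.35 (0.00347). The interaction with clone was not called for Rgs12 (adjusted p = 0.902, and 0.884 without that library). None of the 4 expressed RGS genes was called in that interaction, beside 0.869% of all genes tested. That share was 2.49% without C50 GFP-negative replicate 1, with none of the 4 called, and 38.6% without C50 GFP-negative replicate 2, with Rgs3 called.

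In WT cells Rgs12 stood at 17.53, 14.67 and 16.14 TPM with vehicle and 12.56, 12.09 and 9.31 TPM with dDAVP. The groups did not overlap, with means of 16.1 ± 1.43 and 11.3 ± 1.76 TPM (SD, n = 3 each), but the difference of -0.48 (SE 0.138) did not pass the test (limma, adjusted p = 0.0693). Relative to the median of all genes it was -0.32, and with quantile normalization it was -0.26 (adjusted p = 0.306). The vehicle group had the highest Rgs12 mean of the 10 groups and the 4 GFP-positive groups had the lowest.

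Rgs19 was lower in GFP-positive than in GFP-negative cells as well, and it was the RGS transcript that set the clones farthest apart. C1 had 48.47 and 49.66 TPM in GFP-negative and 37.93 and 33.36 TPM in GFP-positive libraries. C11 had 35.65 and 40.29 TPM against 18.1 and 21.68 TPM, and C43 had 41.84 and 35.24 TPM against 18.67 and 24.59 TPM. C50 started from a far lower level, 7.24 and 11.77 TPM, and reached 3.31 and 4.46 TPM in GFP-positive cells. The fractions were separate in all 4 clones, as they were for Rgs12; 12.2% of genes tested were lower in GFP-positive cells without overlap in all 4 clones (19.5% without C50 GFP-negative replicate 1). The log2 change was -0.81 (SE 0.117, limma, adjusted p = 9.06e-05). It passed the test within C11 (-0.90, adjusted p = 0.0290), C43 (-0.81, 0.0283) and C50 (-1.08, 0.00461) and not within C1 (-0.45, 0.290), while the interaction with clone was not called (adjusted p = 0.585). Without C50 GFP-negative replicate 1 the change within C50 was -1.40 (adjusted p = 0.000813) and the interaction had an adjusted p of 0.271. The C11 call was lost without any 1 of the 4 libraries of C11 (adjusted p = 0.0974 to 0.222) and with all genes above 0 tested (0.0833). In C43 it was lost without GFP-negative replicate 1 (0.189), GFP-negative replicate 2 (0.0685) or GFP-positive replicate 1 (0.149), and with all genes above 0 tested (0.0803).

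With dDAVP in WT cells, Rgs19 was at 36.49, 43.49 and 39.44 TPM against 48.4, 43.72 and 47.82 TPM with vehicle. The gap between the nearest libraries of the groups was 43.49 against 43.72 TPM, and the difference of -0.23 (SE 0.0933, limma, adjusted p = 0.151) was -0.07 relative to the median of all genes. All 4 expressed RGS genes were thus without overlap between WT groups, 1 higher and 3 lower, beside 35.8% of all genes tested (7.12% higher and 28.7% lower).

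**Figure D2:**
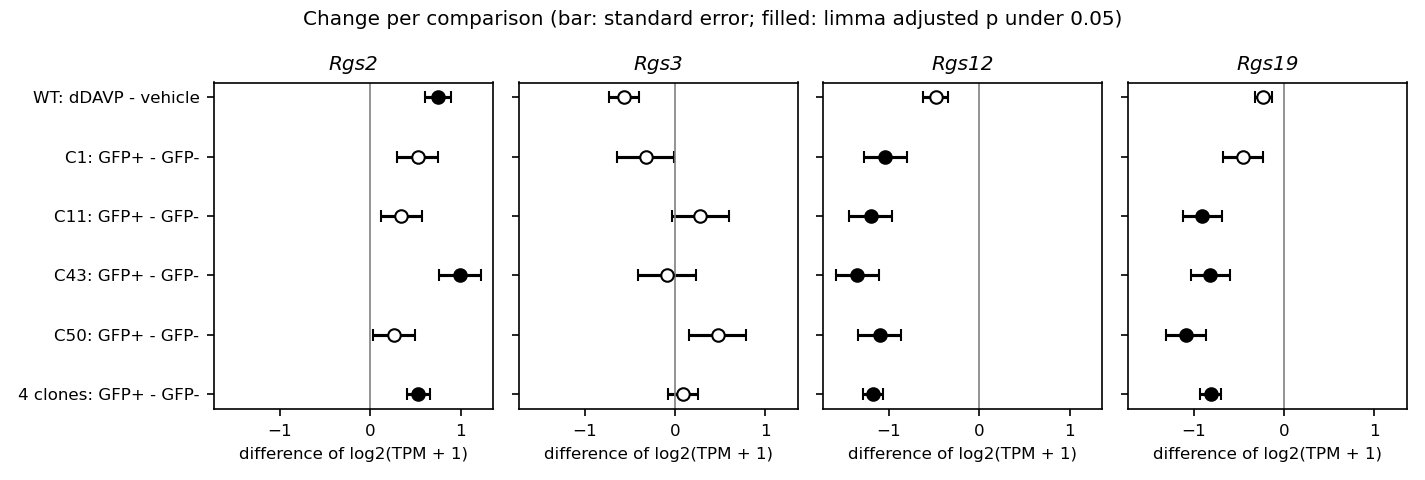
Change on the log2(TPM + 1) scale with its SE for the 4 expressed RGS genes in WT cells (dDAVP against vehicle) and between GFP fractions, over all clones and within each clone; filled symbols passed the test (adjusted p under 0.05). Rgs12 lies between -1.04 and -1.35 in every clone, while Rgs2 in C50, at 0.26, turns to -0.02 without C50 GFP-negative replicate 2.

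Of the 4 genes tested between GFP fractions, 3 were called, Rgs2 higher and Rgs12 and Rgs19 lower, against 35.3% of all genes tested (12.1% higher, 23.2% lower). C1 had 1 of the 4 called (7.22% of all genes), C11 had 2 (7.94%), C43 had 3 (16.3%) and C50 had 2 (26.6%). Without C50 GFP-negative replicate 1 the members' counts were the same and the shares were 15.9%, 17.7%, 29.6% and 23.7%, in the same order of clones. Without C50 GFP-negative replicate 2 the C50 count was 3, with 52.2% of all genes called. The median change of the 4 genes was -0.36 beside -0.06 for all genes (-0.45 beside -0.11 without C50 GFP-negative replicate 1), and in WT cells it was -0.35 beside -0.16. Without C50 GFP-negative replicate 1 the changes of Rgs12 (-1.23, limma, adjusted p = 7.59e-07) and Rgs19 (-0.85, 4.53e-05) were slightly larger. In the 8 clone libraries with fewer genes detected, none of the 4 was called, beside 1.96% of all genes: Rgs12 differed by -1.04 (adjusted p = 0.0910), Rgs19 by -0.58 (0.166) and Rgs2 by 0.55 (0.296). In the 8 with more genes detected the values were -1.41 (0.00182), -1.12 (0.00174) and 0.53 (0.0255), all called, beside 29.9% of all genes. The 2 sets also differ in their clones. The set with fewer genes held C50 GFP-negative replicate 1 and, of C11, only a GFP-positive library. The set with more genes held only a GFP-positive library of C1. The gap between the sets thus cannot be put down to genes detected alone.

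Differences between clones, with the GFP fraction accounted for, were called for Rgs19 (limma F-test, adjusted p = 1.61e-07), Rgs2 (0.00220) and Rgs3 (0.0418) but not for Rgs12 (0.0646), where 28% of all genes were called. Rgs19 in C50 had a mean of 9.51 TPM in GFP-negative cells, 4.40-fold below the mean of the other clones (41.9 TPM), whose means ran from 37.97 to 49.07 TPM; C50 GFP-negative replicate 2 alone, at 11.77 TPM, was 3.56-fold below that mean. In GFP-positive cells C50 was at 3.89 TPM, 6.62-fold below the others' 25.7 TPM (19.89 to 35.65 TPM). Without C50 the clones still differed in Rgs19 (adjusted p = 0.00438), an added comparison chosen after seeing the data, in which Rgs12 was called too (0.0342). Rgs2 was called in all 25 alternatives, this comparison among them (limma F-test, adjusted p at most 0.0220). The share of all genes called without C50 is not given here, so these calls cannot be set beside a background. The Rgs3 call was lost in 15 of 25 alternatives, among them leaving out any 1 library of C1, C11 or C43 or C50 GFP-positive replicate 2, with adjusted p from 0.0107 to 0.122 over the 25. Rgs12 was called without C1 GFP-negative replicate 1 (0.0383) or C50 GFP-negative replicate 1 (0.0429). Without the latter library Rgs19 (5.31e-07), Rgs2 (0.000242) and Rgs3 (0.0107) were called as well, beside 44.8% of all genes. Rgs2 was highest in C43 GFP-positive and C1 GFP-positive cells (18.2 and 18.1 TPM), whose libraries overlapped, then in C1 GFP-negative cells (12.3 TPM). From WT dDAVP (9.42 TPM) down to WT vehicle (5.22 TPM), libraries of neighbouring groups in the Rgs2 order overlapped at every step.

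The mean summed level of the 8 transcripts was lower in the GFP-positive than in the GFP-negative group of each clone. In C50 the libraries of the fractions overlapped in this sum, GFP-negative replicate 1 lying below GFP-positive replicate 1. It was 89.1 ± 5.90 TPM with vehicle and 74.7 ± 6.13 TPM with dDAVP in WT cells (SD, n = 3 each). Between GFP-negative and GFP-positive cells it went from 92.5 ± 3.01 to 73.1 ± 1.05 TPM in C1, from 78.5 ± 7.36 to 57.9 ± 3.27 TPM in C11, from 74.8 ± 3.04 to 58.5 ± 10.0 TPM in C43 and from 36.9 ± 10.7 to 28.9 ± 4.36 TPM in C50 (SD, n = 2 each), where GFP-negative replicate 2 alone had 44.5 TPM. Rgs2 made up 5.86% of the sum with vehicle, 12.6% with dDAVP and up to 31.1% in C43 GFP-positive cells. Rgs19 made up 52.4% with vehicle and 13.4% in C50 GFP-positive cells, where Rgs3 was the largest component at 42.9%. No test was made on these sums.

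**Figure D3:**
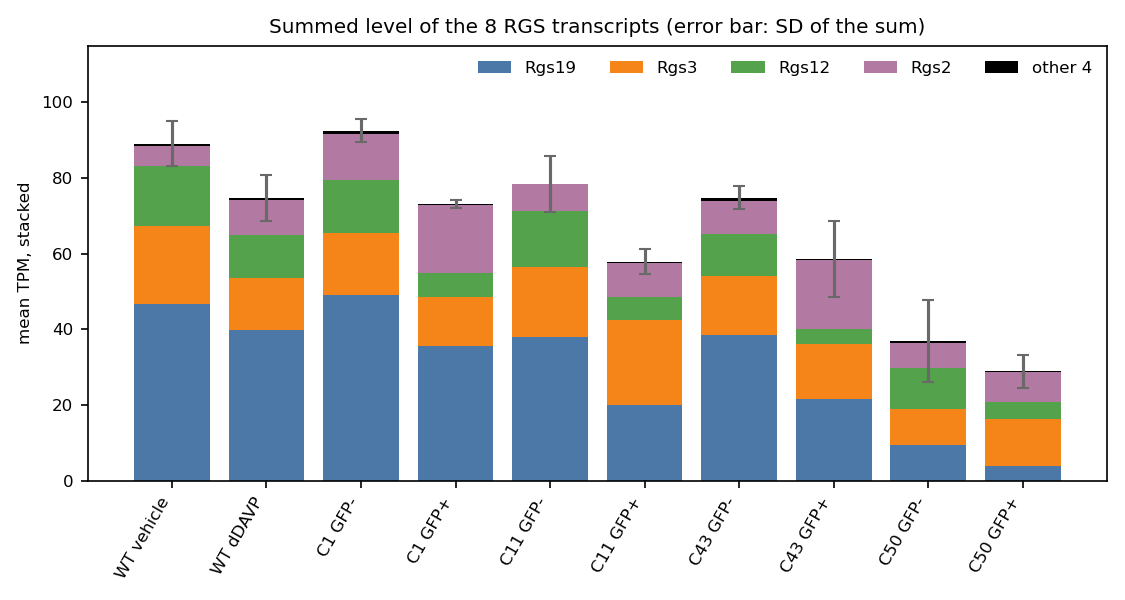
Stacked group means in TPM (vertical axis from 0) of Rgs19, Rgs3, Rgs12, Rgs2 and the other 4 RGS transcripts in the 10 groups; error bars are the SD of the sum over libraries. The sum runs from 92.5 TPM in C1 GFP-negative to 28.9 TPM in C50 GFP-positive cells, with Rgs2 the larger share in the GFP-positive group of each clone.

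The remaining members were near the bottom of the scale. Rgs4, an R4 member best known from brain and heart, was at 0 to 0.38 TPM and listed at 0 in 10 of 22 libraries. Rgs16, a further R4 member, was at 0 to 0.05 TPM and listed at 0 in 15. Rgs10, a small R12 protein that is little more than an RGS domain and is known from immune cells, was at 0 to 0.97 TPM and listed at 0 in 7; its highest value was in C43 GFP-negative replicate 1, followed by 0.66 TPM in C1 GFP-negative replicate 2 and 0.61 TPM in WT vehicle replicate 2. Rgs14, which like Rgs12 binds Ras-family proteins, was at 0 to 0.52 TPM and listed at 0 in 9; its highest values, 0.39 and 0.52 TPM, were in C1 GFP-negative cells. These 4 genes were below the filter of a mean of 1 TPM and were tested only with all genes above 0 included. None was then called in any comparison: between GFP fractions Rgs10 differed by -0.27 (limma, adjusted p = 0.451) and Rgs14 by -0.16 (0.277). The libraries with values above 0 were scattered over WT, GFP-negative and GFP-positive groups.

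**Figure D4:**
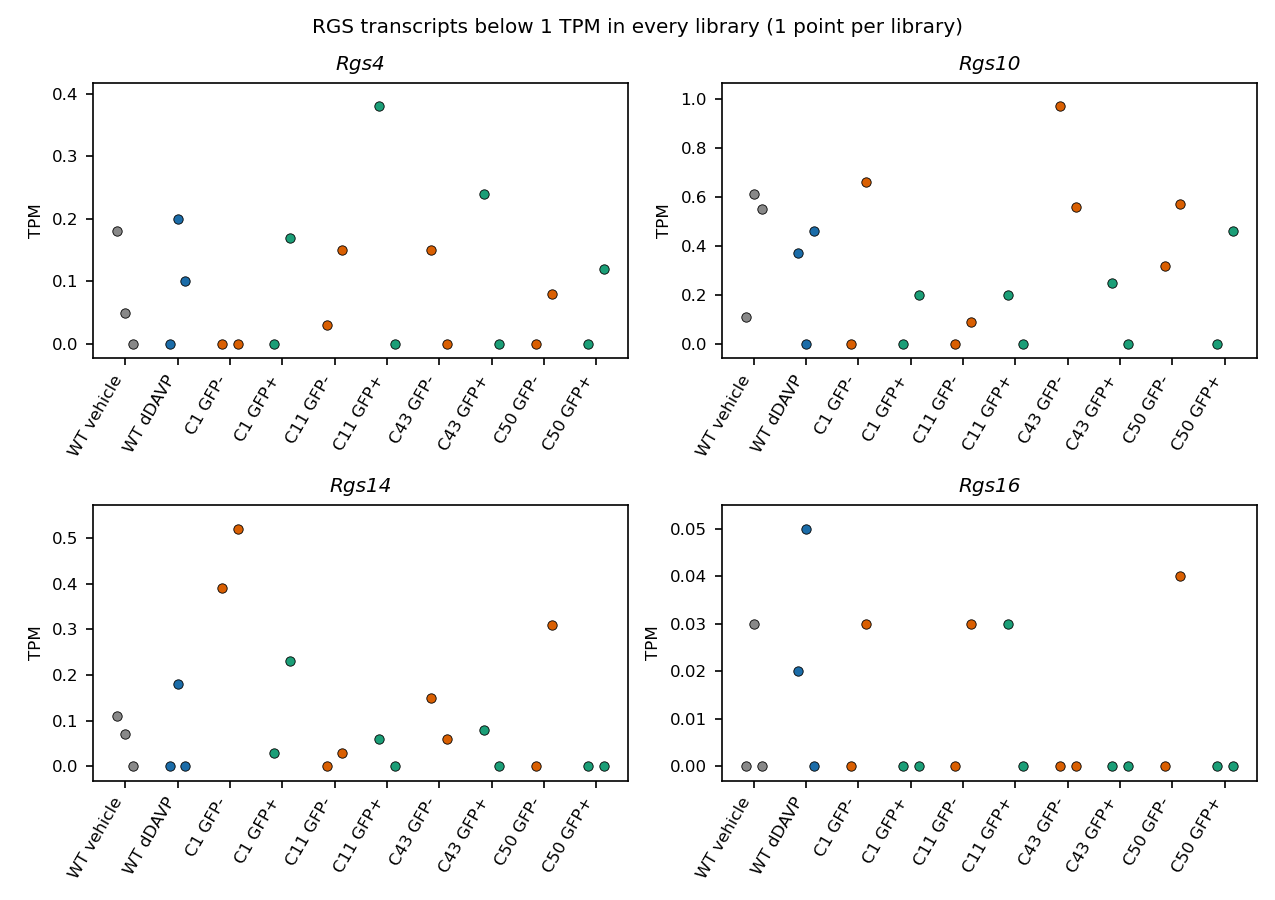
Level in TPM of Rgs4, Rgs10, Rgs14 and Rgs16 in each of 22 libraries by group, 1 point per library, with a different vertical scale in each panel (colours as for the expressed genes). No point reaches 1 TPM, and many lie at 0.

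The expressed members differed in how their 10 group means of log2(TPM + 1) moved together. Pearson's r was 0.60 between Rgs12 and Rgs19, 0.53 between Rgs3 and Rgs19 and -0.58 between Rgs2 and Rgs12, and between -0.10 and 0.21 for the other pairs. Among 4054 genes with a mean of at least 5 TPM and a spread of at least 0.3 between groups, the most alike to Rgs12 were Tmem231 (r = 0.99), Slc39a10 (0.98) and Lrwd1 (0.98). For Rgs2 they were Srd5a1 (0.94), Fetub (0.93) and Usp3 (0.90), for Rgs3 Tgfbr3 (0.95), Iqank1 (0.94) and Rubcn (0.94), and for Rgs19 Sox6 (0.94), Nupr1 (0.94) and Hmga1 (0.93). These r values describe 10 points, 8 of which are the 2 fractions of 4 clones, and no p-value is given. They include C50 GFP-negative replicate 1, the library with the high ribosomal share, and are not given without it. Rgs3 was at 5.10 TPM in that library and at 13.85 TPM in C50 GFP-negative replicate 2.

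The other genes of the G-protein cycle were counted from lists. With dDAVP in WT cells, 0 of 10 tested other RGS-domain genes and 0 of 4 Gq effectors were called, beside 8.88% of all genes tested. Among alpha subunits 1 of 10 was called, Gna13 of the G12/13 class (0.34, adjusted p = 0.0440 by limma), and among beta and gamma subunits 1 of 7, Gng12 (0.51, 0.00556). Of 3 tested receptor kinases and arrestins, Arrb2, the beta-arrestin that uncouples and internalises receptors, fell from 29.8 ± 1.61 to 15.9 ± 2.82 TPM (-0.88, limma, adjusted p = 0.0109, n = 3 each). Of 10 other G-protein regulators, the Ras-like Rasd1 rose from 15.1 ± 0.806 to 25.8 ± 2.17 TPM (0.73, limma, adjusted p = 0.00792, n = 3 each). The median log2 changes were -0.39 for the other RGS-domain genes, -0.12 for alpha subunits, 0.09 for beta and gamma subunits, -0.36 for receptor kinases and arrestins, -0.25 for other regulators and -0.40 for Gq effectors, beside -0.16 for all genes tested.

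Between GFP fractions, 4 of 10 other RGS-domain genes were called, 2 in each direction, a share near the 35.3% of all genes called (12.1% higher, 23.2% lower), against which the other lists' counts are also to be read. Rgs11, an R7 protein that pairs with Gnb5, rose from 48.2 ± 5.52 to 78.6 ± 27.4 TPM (0.63, limma, adjusted p = 0.00163), and its partner Gnb5 rose by 0.35 (0.00156), both over 8 libraries per fraction. Within clones the Rgs11 rise was called in C50 only (1.26, limma, adjusted p = 0.000487). It was 0.23 in C1 (0.559), 0.64 in C11 (0.0510) and 0.40 in C43 (0.153), and its interaction with clone was not called (0.212). Snx13, a sorting nexin with an RGS domain, rose by 0.91 (limma, adjusted p = 0.00367), while Axin1 (-0.44, 0.0469) and Snx25 (-0.37, 0.0121) fell. Of 10 alpha subunits, Gna13 rose (0.67, limma, adjusted p = 2.19e-05) and Gnas fell slightly from 718 ± 52.5 to 639 ± 50.8 TPM (-0.17, 0.0342, n = 8 each); the Gnas call was lost with median-ratio scaling (adjusted p = 0.459) and quantile normalization (0.0771). Of 7 beta and gamma subunits 5 were called, Gng12 (0.61, limma, adjusted p = 1.6e-05), Gnb5 and Gng7 higher and Gng10 (-0.53, 0.00352) and Gnb2 (-0.37, 0.000964) lower. Among 3 receptor kinases and arrestins, Arrb2 (-0.91, limma, adjusted p = 0.000121) and Grk6 (-0.50, 0.00781) fell. Among 10 other regulators 4 were called: Rasd1 (1.31, limma, adjusted p = 1.57e-06) and the Rgs19 partner Gipc1 (0.25, 0.00119) rose, and the GoLoco protein Gpsm2 (-0.88, 0.00028) and Ccdc88a (-0.48, 0.00889) fell. None of 4 Gq effectors was called. In the same order the lists had medians of 0.05, -0.04, 0.15, -0.50, 0.13 and 0.27, beside -0.06 for all genes tested.

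The list counts between GFP fractions moved without C50 GFP-negative replicate 1. All 17 list genes called with that library were called without it, and 6 more of the 44 tested were called, all lower: Arhgef1 (-0.24, limma, adjusted p = 0.00454), Gna12 (-0.62, 8.46e-06), Gnat2, Grk2 (-0.30, 0.00498), Ric8b (-0.27, 0.00727) and Itpr3 (-0.59, 0.00279). These 6 are named after their values were seen, and 46% of all genes were called in that fit. Snx13 was then at 0.69 (limma, adjusted p = 3.27e-05) and Axin1 at -0.61 (1.2e-05). The median of the other RGS-domain genes turned from 0.05 to -0.09, that of alpha subunits went from -0.04 to -0.15, that of beta and gamma subunits from 0.15 to 0.07, that of receptor kinases and arrestins from -0.50 to -0.62, that of other regulators from 0.13 to 0.07 and that of Gq effectors from 0.27 to 0.10.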

How the data were processed

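RNA from mpkCCD cells was made into cDNA with the SMART-Seq HT kit and sequenced paired-end from Nextera XT libraries, which do not mark strand, per the labels' protocols. STAR and RSEM are named in the submitters' processing notes; genome build and annotation are not given in the sources used here. The authors deposited TPM per gene and library, and TPM keep no depth. The 980 lines that share 1 of 79 symbols were summed, leaving 54514 entries; 0 pairs of libraries were identical, and 16 columns (authors' means, ratios and highest values) were not used. Member identifiers as deposited were ENSMUSG00000026360 (Rgs2), ENSMUSG00000059810 (Rgs3), ENSMUSG00000038530 (Rgs4), ENSMUSG00000030844 (Rgs10), ENSMUSG00000029101 (Rgs12), ENSMUSG00000052087 (Rgs14), ENSMUSG00000026475 (Rgs16) and ENSMUSG00000002458 (Rgs19). All 8 matched GENCODE M21 (GRCm38), where opposite-strand genes overlap Rgs3, Rgs12 and Rgs16, each at a mean under 0.1 TPM.

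Models were fitted in limma 3.58.1 (statmod 1.5.0, R 4.3.3) to log2(TPM + 1), for genes whose mean reached at least 1 TPM over the libraries compared, with a mean-variance trend; tests were two-sided, adjusted by Benjamini-Hochberg over all genes tested, and called at an adjusted p under 0.05. WT groups were compared over 6 libraries; GFP fractions over 16 with clone as covariate; within-clone changes came from 1 model with a shared spread; interaction and clone differences are F-tests. The method was tested on simulated data. Genes named are the 8 members, called genes of the lists (values for at most 4 per list and comparison with a mean of at least 5 TPM), the 3 most alike genes per expressed member, Aqp2 and GFP. Named outside this rule, after their values were seen, are Rgs20, the cell type markers Atp6v1b1, Csf1r, Slc4a1 and Slc26a4, and 6 list genes newly called without C50 GFP-negative replicate 1. The members and lists were chosen with earlier results of these data known.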

Additional observations from a re-analysis of the deposited data

How the results depend on the processing

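The count of expressed RGS genes called with dDAVP in WT cells was 1; it was 0 with all genes above 0 included, with the replicate number as a block, and in the libraries with more genes detected (2 against 2), and 0 to 1 when 1 library was left out. Rgs2 kept its direction in all 16 alternatives (0.69 to 0.96) and lost its call in 7 (adjusted p = 0.137 with the block, 0.0662 with all genes above 0, 0.133 in the libraries with more genes detected). Deviations of same-numbered WT libraries from their group means had correlations of -0.21, -0.03 and -0.11 over all genes (0.02 to 0.20 in the clones). These correlations cannot show whether such libraries shared a culture or day, and the labels give only the number. With the block, 122 genes were called in WT cells against 1198 without it. Arrb2, Gna13, Gng12 and Rasd1 were then no longer called (limma, adjusted p = 0.0612, 0.177, 0.0807 and 0.0702). Of the genes named between GFP fractions, Axin1 (0.0545) and Gnas (0.0692) lost their calls with the block, while Rgs2, Rgs12 and Rgs19 were called. The comparison within the WT libraries with fewer genes detected could not be fitted (1 against 1; Rgs2 at 6.18 and 9.35 TPM).

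Between GFP fractions 3 members were called; the count was 0 in the libraries with fewer genes detected and 2 with clone means as replicates (Rgs2 adjusted p = 0.0577). The interaction of fraction and clone went from 0 called to 1 (Rgs3) without C50 GFP-negative replicate 2, a range of 0 to 1 over libraries left out, where 5038 genes were called against 114 with all libraries and 11 with the block. For differences between clones, 2 to 4 members were called over the alternatives. The share of all genes called moved as well, from 28% with all libraries to 44.8% without C50 GFP-negative replicate 1. No called change reversed. Of all genes called in WT cells, 320 of 1198 were higher as deposited, 450 of 756 with median-ratio scaling and 438 of 810 with quantile normalization; other WT counts were 442 (all genes above 0), 2694 (genes detected as a covariate) and 101 (more genes detected). Between fractions 1582 of 4626 were higher as deposited and 2385 of 4679 with median-ratio scaling, with 250 called in the libraries with fewer genes detected and 2406 with clone means. TPM hide depth, so values near 0 carry no detection limit.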
